A study of Mus musculus with 7 samples.

Results

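Light chains of the mouse IGKV3 family were followed through B cells of lymph nodes from 5xFAD and WT mice. Members were the genes IGKV3-1, IGKV3-2, IGKV3-4, IGKV3-5, IGKV3-7, IGKV3-10 and IGKV3-12, and a cell belonged to the family if it held exactly 1 productive light chain contig whose first named V gene was one of these. In 6 libraries, 1505 of 17822 cells with exactly 1 light chain met this rule (8.44%), and 15528 cells with another kappa V gene (other kappa cells) served as the comparison. Family genes IGKV3-3 (87 cells) and IGKV3-9 (63 cells) are outside the list and were counted among the other kappa cells.

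The groups were 5xFAD and WT females of 10 to 11 months, and nothing in the labels names a treatment. 5xFAD is a transgenic Alzheimer's disease model in which neurons express mutant human amyloid precursor protein and presenilin 1 from the Thy1 promoter and amyloid plaques form in the brain. Deep cervical nodes (dCLN) and superficial cervical nodes (sCLN) drain the head and neck, and inguinal nodes (iLN) drain the flank and hind limb. Each node and genotype has 1 library, made from hashtagged cell suspensions that were combined, so animals are pooled within a library. The labels do not say whether libraries of 1 genotype share animals, so p-values below measure only the spread between these libraries. A seventh library mixed all nodes and both genotypes and enters no comparison.

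A kappa chain is made when one V gene is joined to one J gene in a developing B cell, and the joint encodes the third complementarity-determining region of the chain. V genes that point the same way as the J genes join by deletion of the DNA between them, whereas V genes in the opposite orientation join by inversion. Because unused J genes remain downstream of a joint, a cell can replace its kappa chain by a further joint to a J gene farther along (receptor editing), until the last J gene is used. IGKV3 genes form the block of V genes closest to the J genes.

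Coordinates and germline sequences come from the GENCODE annotation of the GRCm38 build. Counted from IGKJ1, the members are V genes 1, 2, 4, 5, 6, 8 and 9 among the annotated IGKV genes, all on the + strand like the J genes. IGKV3-1 lies at chr6:70703578-70704177, IGKV3-2 at chr6:70698449-70699067, IGKV3-4 at chr6:70671788-70672377 and IGKV3-5 at chr6:70663275-70663895. IGKV3-7 follows at chr6:70607437-70608036, IGKV3-10 at chr6:70572633-70573230 and IGKV3-12 at chr6:70518250-70518849. The distance from the end of the V gene to IGKJ1 ran between 18.4 kb for IGKV3-1 and 204 kb for IGKV3-12. The next V gene outward, IGKV6-13, sits on the opposite strand. Between pairs of members, the V sequences that equal the germline were identical at 85.5% (IGKV3-1 and IGKV3-7) to 98.2% of 276 bases (IGKV3-5 and IGKV3-10).

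The 3' ends of the V genes are shown because they form most of the light chain junction. Capitals mark the codon of the conserved cysteine with which a junction begins.
IGKV3-1: TGTcagcaaagtaggaaggttccttc
IGKV3-2: TGTcagcaaagtaaggaggttcctcc
IGKV3-4: TGTcagcaaagtaatgaggatcctcc
IGKV3-5: TGTcagcaaagtaatgaggatcctcc
IGKV3-7: TGTcagcacagttgggagattcctcc
IGKV3-10: TGTcagcaaaataatgaggatcctcc
IGKV3-12: TGTcagcacagtagggagcttcctcc
These ends were equal in IGKV3-4 and IGKV3-5 and differed between all other members. The functional J genes that they meet are shown from their first base, with the phenylalanine codon that closes the junction inside the run.
IGKJ1 (chr6:70722562-70722599): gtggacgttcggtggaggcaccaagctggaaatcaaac
IGKJ4 (chr6:70723548-70723585): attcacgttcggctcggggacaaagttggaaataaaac
IGKJ2 starts at chr6:70722916-70722958 and IGKJ5 at chr6:70723886-70723927, so IGKJ1 is the J gene nearest the V genes and IGKJ5 the farthest.

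Member cells made up 8.97% of cells with 1 light chain in the 5xFAD dCLN library (347 cells, exact 95% interval 8.09 to 9.92%) and 8.54% in the WT dCLN library (306 cells). They made up 8.48% in 5xFAD sCLN (203 cells) and 8.28% in WT sCLN (294 cells). In iLN they made up 8.82% in 5xFAD (192 cells, 7.66 to 10.1%) and 7.24% in WT (163 cells, 6.20 to 8.39%). The share was thus between 7.24% and 8.97% everywhere, and the mixed library held 9.13%. With IGKV3-3 and IGKV3-9 added, the family ranked 4 among light chain V families, at 9.20 ± 0.663% (SD, n = 6 libraries).

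IGKV3-5 was the most used member at 1.87 ± 0.304% of cells with 1 light chain (SD, n = 6 libraries). IGKV3-12 (1.32 ± 0.222%), IGKV3-7 (1.30 ± 0.204%), IGKV3-4 (1.28 ± 0.269%), IGKV3-2 (1.24 ± 0.248%) and IGKV3-10 (1.12 ± 0.238%) followed. These 5 genes did not differ from their neighbours in this order by more than their spread between libraries. IGKV3-1, the V gene nearest the J genes, was the least used at 0.265 ± 0.107%, with 47 cells in all. Its share was 0.388% and 0.112% in 5xFAD and WT dCLN, 0.292% and 0.254% in 5xFAD and WT sCLN, and 0.367% and 0.178% in 5xFAD and WT iLN, below that of every other member in each library.

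**Figure D1:**
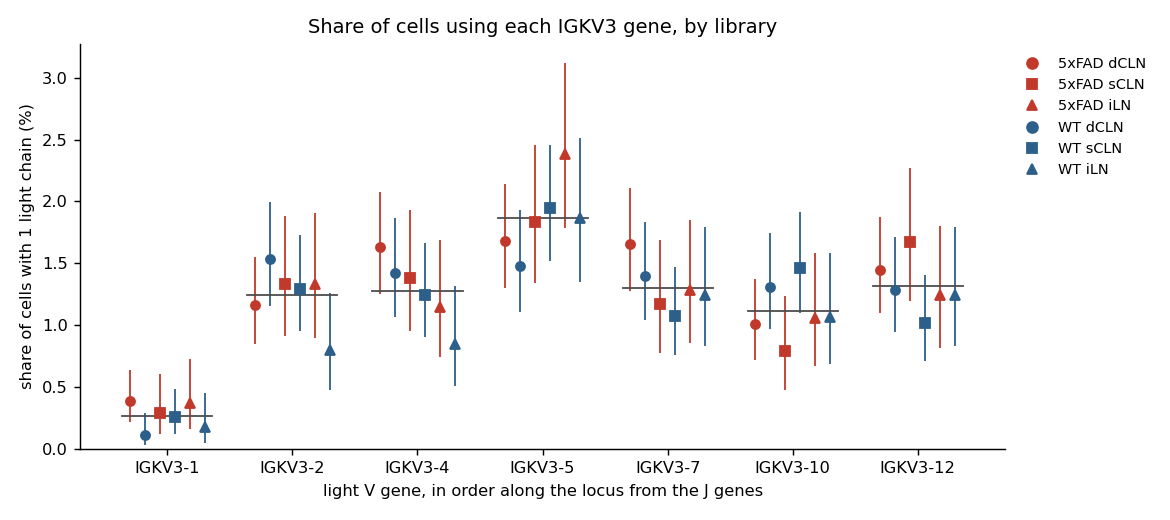
Share of cells with exactly 1 light chain that use each member (y axis, %) in each of the 6 libraries, with members in order along the locus (x axis). Red marks 5xFAD and blue WT, the shape gives the node, bars are exact 95% intervals and grey lines are means of 6 libraries; IGKV3-1 sits at 0.265% on average and IGKV3-5 at 1.87%.

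Member cells held IGKJ1 more often and IGKJ5 less often than other kappa cells in all 6 libraries. IGKJ1 was in 37.5% of member cells of 5xFAD dCLN and 46.7% of WT dCLN, 43.3% of 5xFAD sCLN and 42.5% of WT sCLN, and 36.5% of 5xFAD iLN and 46.0% of WT iLN. In the other kappa cells of these libraries it was in 27.5%, 29.0%, 28.3%, 27.6%, 27.9% and 30.8%, in the same order. The lowest member value lay above the highest value of other kappa cells. The means were 42.1 ± 4.29% and 28.5 ± 1.25% (SD, n = 6 libraries), a difference of 13.6 percentage points.

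IGKJ5 was in 17.6% of member cells of 5xFAD dCLN and 17.3% of WT dCLN, 9.85% of 5xFAD sCLN and 14.6% of WT sCLN, and 16.1% of 5xFAD iLN and 12.3% of WT iLN. In other kappa cells it was in 30.1%, 25.3%, 26.5%, 25.6%, 28.8% and 26.9%, in the same order. Again the groups did not overlap, with means of 14.6 ± 3.05% in member cells and 27.2 ± 1.88% in other kappa cells. IGKJ4 averaged 11.1 ± 1.68% in member cells and 14.7 ± 0.795% in other kappa cells and was lower in 6 of 6 libraries. IGKJ2 averaged 32.2 ± 4.62% in member cells and 29.6 ± 1.18% in other kappa cells and was higher in 4 of 6.

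For each of the 3 J genes with one sign, an exact sign-flip test over the 6 libraries (two-sided) gave p = 0.03125, the smallest p this design allows. After Benjamini-Hochberg adjustment over the 15 measures compared with other kappa cells it became 0.0586, so none of the 15 passed 0.05. A measure at the smallest p can pass only if enough of the other measures reach that p too. Across all alternatives other than leaving out a library, the IGKJ1 difference stayed between 9.91 and 16.9 points and the IGKJ5 difference between -16.7 and -7.56 points.

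**Figure D2:**
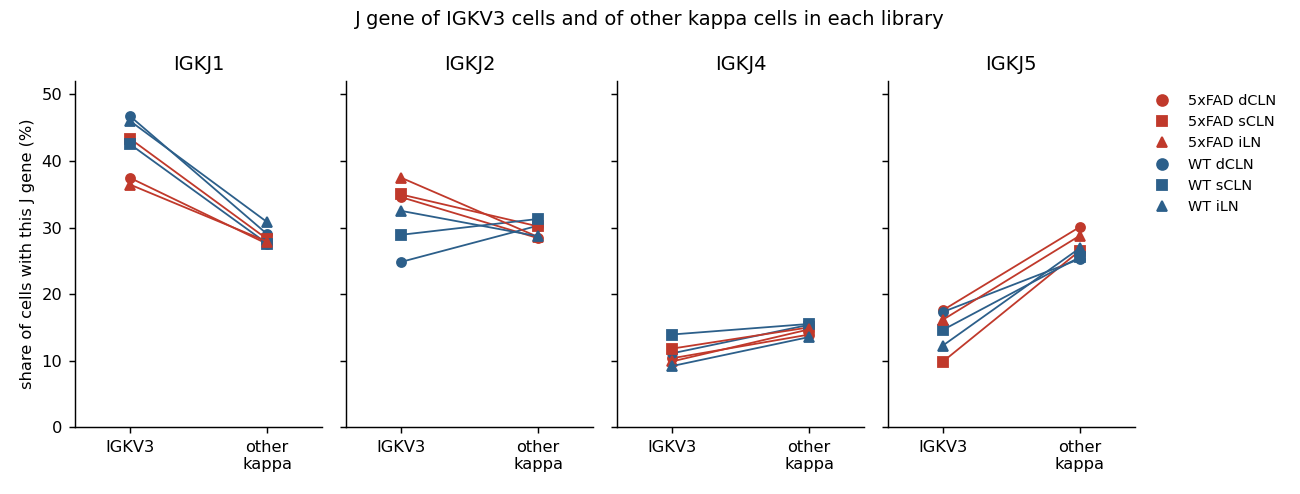
Share of cells with each functional J gene (y axis, %) among member cells (left of each panel) and other kappa cells (right), with 1 line per library. IGKJ1 lines all descend from member to other kappa cells and IGKJ4 and IGKJ5 lines all ascend, while IGKJ2 lines cross.

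Members differed among themselves in J use. IGKV3-2 had the highest IGKJ1 share, 58.7% of 225 cells (exact 95% interval 51.9 to 65.2%), and the lowest IGKJ5 share, 5.33% (2.79 to 9.13%), which was the lowest of the 63 IGKV genes with at least 60 cells. Over the 6 libraries its IGKJ1 share ran between 48.9% and 72.2% and its IGKJ5 share between 0% and 9.38%, with no library inside the range of other kappa cells. IGKV3-4 had 47.7% IGKJ1 and 9.79% IGKJ5, and IGKV3-10 had 42.6% and 9.80%. IGKV3-5 (36.9% and 23.4%), IGKV3-7 (33.9% and 19.1%) and IGKV3-12 (32.6% and 21.0%) were closer to the other kappa cells. IGKV3-1, with fewer than 60 cells, had IGKJ1 in 24 of 47 cells (51.1%) and IGKJ5 in 3.

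Each of the 63 IGKV genes with at least 60 cells, 6 of them members, was compared with kappa cells of all other V genes. Those cells include the remaining members. IGKJ1 was above the value of those cells in 6 of 6 libraries for 3 members (IGKV3-2, IGKV3-4 and IGKV3-7), against 25.4% of all genes. IGKJ5 was below it in 6 of 6 libraries for 3 members (IGKV3-2, IGKV3-4 and IGKV3-10), against 30.2% of all genes. IGKJ4 was below it in 6 of 6 libraries for 1 member (IGKV3-2), against 15.9%. Across these 6 members the IGKJ1 share was lower at larger distance from IGKJ1 (Pearson r = -0.71 across genes, Spearman rho -0.83). The 25 genes on the + strand had r = -0.476 (rho -0.528), but they include the members and so cannot show such a trend outside them. Without the members, the 57 genes of both strands had r = 0.141 (rho 0.116), and + strand genes without the members were not examined alone. The 38 genes on the opposite strand had r = 0.373, and across all 63 IGKV genes r was 0.01. Genes are not independent replicates, and these cells come from the same libraries.

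High IGKJ1 use was not particular to the members. In the comparison cells of the V genes next along the locus (IGKV position numbers below 35, including IGKV3-3 and IGKV3-9), IGKJ1 was in 22.6% to 27.7% and IGKJ5 in 29.0% to 34.7% of cells over the 6 libraries. The distal genes IGKV10-94 (59.5% IGKJ1), IGKV10-96 (59.4%) and IGKV19-93 (59.0%) lie about as high as IGKV3-2, the highest member.

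J use also varied with the strand of the V gene, a split made after seeing the data. Of 19 other IGKV genes on the + strand the median IGKJ1 share was 40.1%, and of 38 on the opposite strand 16.3%, against 39.8% for the 6 members. Measured over cells, IGKJ1 averaged 42.1 ± 4.29% in member cells and 32.2 ± 2.09% in other + strand cells, and was higher in 6 of 6 libraries (difference 9.91 points, exact sign-flip p = 0.03125, adjusted 0.0781). IGKJ5 averaged 14.6 ± 3.05% in member cells and 22.2 ± 1.14% in other + strand cells, and was lower in 6 of 6. Cells with opposite-strand V genes had 26.5 ± 0.836% IGKJ1 and 30.0 ± 2.44% IGKJ5. The part of strand or position in these differences was not tested.

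**Figure D3:**
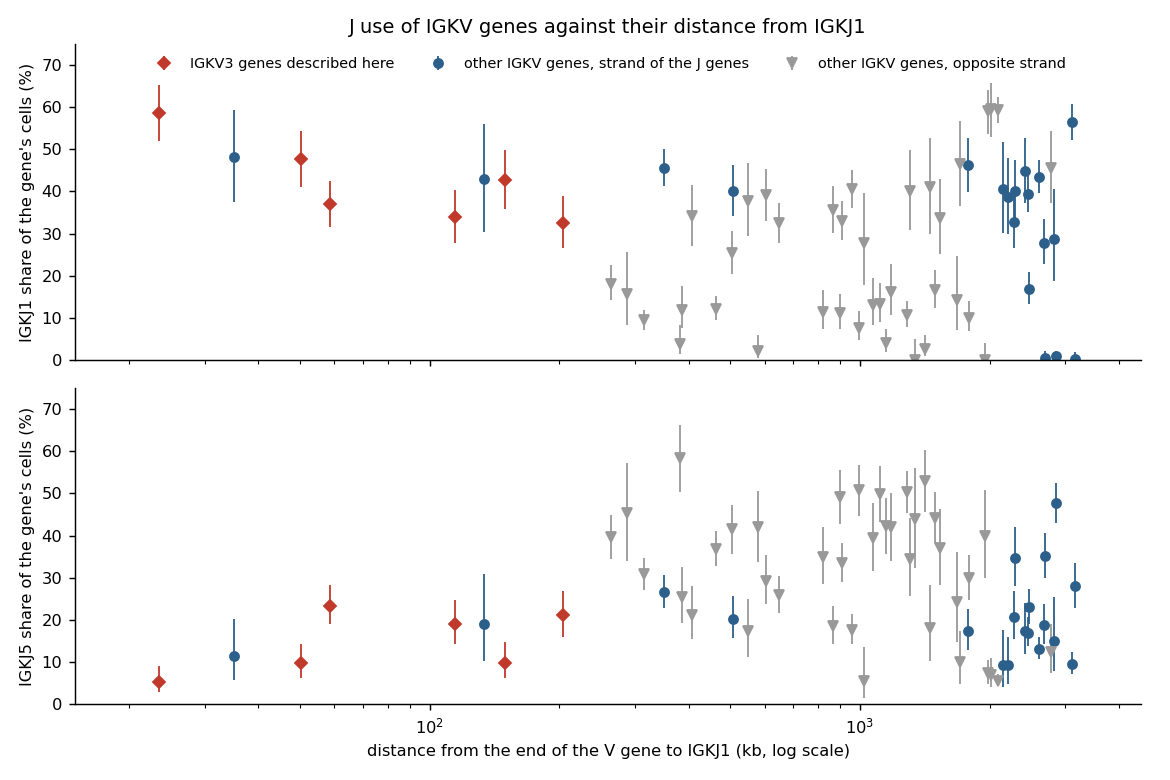
Share of each V gene's cells that use IGKJ1 (upper panel) and IGKJ5 (lower panel) against the distance of the V gene from IGKJ1 in kb on a log scale, for 63 IGKV genes with at least 60 cells in 6 libraries. Red diamonds are members, blue circles other genes on the strand of the J genes and grey triangles genes on the opposite strand, with exact 95% intervals; members span 32.6% to 58.7% IGKJ1.

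Light chain junctions of member cells were uniform. They were 33 bases long in 1442 of 1505 cells (95.8%), against 90.7% of other kappa cells. Bases that match neither germline gene (N bases, added by terminal deoxynucleotidyl transferase) were in 34 member cells (2.26%), against 4.24% of other kappa cells. By library the N base share averaged 2.21 ± 0.574% in member cells and 4.20 ± 0.341% in other kappa cells and was lower in 6 of 6 libraries (exact sign-flip p = 0.03125, adjusted 0.0586). Against other + strand cells alone, which had 1.76 ± 0.394%, the difference changed sign to 0.450 points (higher in 5 of 6, exact sign-flip p = 0.125). Mean junction length, 33 ± 0.0494 bases in member cells and 32.9 ± 0.0255 in other kappa cells, was higher in 6 of 6 libraries. Against other + strand cells, at 33 ± 0.0208 bases, it was higher in 3 of 6.

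Among members, N bases were in 13 of 233 IGKV3-12 cells (5.58%) and 1 of 225 IGKV3-2 cells (0.444%). Counting each combination of heavy and light chain once over the 6 libraries (a receptor), the 1242 member receptors held 149 different combinations of V gene and junction, and the 13141 other receptors held 1370.

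The commonest junction of each member is shown because the same sequence recurred with many different heavy chains. Lower case is the stretch that matches the germline V end and capitals what follows it.
IGKV3-1 with IGKJ2: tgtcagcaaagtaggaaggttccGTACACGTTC
IGKV3-2 with IGKJ1: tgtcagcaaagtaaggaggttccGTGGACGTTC
IGKV3-4 with IGKJ2: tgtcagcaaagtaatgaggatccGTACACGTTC
IGKV3-5 with IGKJ2: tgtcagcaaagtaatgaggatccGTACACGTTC
IGKV3-7 with IGKJ2: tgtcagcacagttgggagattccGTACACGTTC
IGKV3-10 with IGKJ2: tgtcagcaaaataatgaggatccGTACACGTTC
IGKV3-12 with IGKJ2: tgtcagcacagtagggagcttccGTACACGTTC
All 7 kept 23 bases of the V gene and were found in 6 of 6 libraries. The IGKV3-2 junction was in 65 of 182 IGKV3-2 receptors (35.7%), the IGKV3-7 junction in 62 of 196 (31.6%) and the IGKV3-4 junction in 57 of 183 (31.1%). For IGKV3-10 a joint to IGKJ1 was as common, with 41 of 161 receptors each (25.5%). The commonest junction was in 44 of 200 IGKV3-12 receptors (22%), 11 of 44 IGKV3-1 receptors (25%) and 41 of 276 IGKV3-5 receptors (14.9%). IGKV3-2 was thus the one member whose commonest junction used IGKJ1. In IGKV3-5 the commonest junction took the smallest share, but that share pools the V sequences described below, which differ inside the junction. The junction shown carries the base of the first of them, which had 138 heavy junctions.

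IGKV3-5 cells fell into 2 recurrent V sequences of similar number. A recurrent V sequence was one that paired with at least 10 different heavy chain junctions in at least 3 libraries, a definition added after seeing the data. One of them equals the germline (154 cells with 138 heavy junctions) and the other differs from it (171 cells with 137 heavy junctions), and both were found in all 6 libraries and in the mixed one. Second sequences were found for 5 of 78 IGKV genes (6.41%), 3 of them members, and a recurrent sequence that differs from the deposited germline for 6 of 78 (7.69%). The second sequences of the members are shown up to the conserved cysteine, with the bases that differ from the deposited germline in capitals.
IGKV3-5 second sequence: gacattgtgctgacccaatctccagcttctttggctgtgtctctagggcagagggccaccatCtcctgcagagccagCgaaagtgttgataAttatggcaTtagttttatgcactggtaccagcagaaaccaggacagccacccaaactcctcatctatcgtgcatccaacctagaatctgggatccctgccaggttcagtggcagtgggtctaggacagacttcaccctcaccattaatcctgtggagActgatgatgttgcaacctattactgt
IGKV3-7 second sequence: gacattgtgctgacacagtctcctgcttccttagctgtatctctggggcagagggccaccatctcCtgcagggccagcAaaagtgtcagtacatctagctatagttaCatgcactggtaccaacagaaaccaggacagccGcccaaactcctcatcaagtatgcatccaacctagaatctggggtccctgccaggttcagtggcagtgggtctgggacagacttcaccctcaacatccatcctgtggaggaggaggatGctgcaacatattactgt
IGKV3-10 second sequence: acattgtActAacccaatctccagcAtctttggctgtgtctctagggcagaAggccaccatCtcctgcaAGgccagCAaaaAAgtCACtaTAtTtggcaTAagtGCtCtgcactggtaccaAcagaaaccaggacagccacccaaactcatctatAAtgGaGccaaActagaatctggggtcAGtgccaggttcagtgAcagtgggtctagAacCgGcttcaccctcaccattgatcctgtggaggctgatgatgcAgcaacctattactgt
Positions of substitutions are counted in the gapped numbering of the deposited alignments, germline base first. IGKV3-5 carried A63C, T78C, G92A, A107T and G286A. IGKV3-7 carried A66C, C79A, T114C, A147G and A295G in 17 cells with 16 heavy junctions. IGKV3-10 carried 35 substitutions and 3 deleted bases in 21 cells with 20 heavy junctions. This sequence was identical to the first IGKV3-10 sequence at 87.1% of 272 bases, and to the second IGKV3-5 sequence at 86.8%. For IGKV3-5 and IGKV3-7 the second sequence was identical to the first at 98.2%. The name IGKV3-10 is that of the deposited call, and whether the sequence belongs to that gene was not tested. None of the 3 second sequences equals an annotated IGKV transcript, and the first sequence of each of these genes equals its own. The origin of the second sequences was not tested.

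In the IGKV3-5 junction the 2 sequences also differed, by G16A counted from the first junction base: A was there in 163 of 163 junctions of 33 bases with the second sequence, and G in 151 of 151 with the first. The second sequence held 43.1% of IGKV3-5 cells in 5xFAD dCLN and 66.0% in WT dCLN, 43.2% in 5xFAD sCLN and 58.0% in WT sCLN, and 53.8% in 5xFAD iLN and 50% in WT iLN. The difference, 5xFAD minus WT, was -23.0 points in dCLN (interval -40.4 to -3.71), -14.8 points in sCLN (-33.7 to 5.34) and 3.85 points in iLN (-17.5 to 24.9). These intervals cover counting error only, neither genotype was higher in every node, and no p was given. In cells with 2 light chains that included IGKV3-5, 34 held the second sequence and 36 the first, and none was found with both. Holding both takes 2 productive IGKV3-5 chains. With IGKV3-5 in 1.87% of cells with 1 light chain on average, the absence of such cells says little.

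IGKJ5 was in 57 of 171 cells with the second IGKV3-5 sequence (33.3%) and in 19 of 154 with the first (12.3%). By library the share was 35.7% and 10.8% in 5xFAD dCLN, 42.9% and 16.7% in WT dCLN, 5.26% and 8% in 5xFAD sCLN, 30% and 17.2% in WT sCLN, 39.3% and 16.7% in 5xFAD iLN, and 38.1% and 4.76% in WT iLN, second sequence before first. It was higher with the second sequence in 5 of 6 libraries, by 19.5 ± 12.8 points on average (exact sign-flip p = 0.0625, chosen after seeing the data). The commonest IGKJ5 junction of IGKV3-5, in 32 of 276 receptors, carries the base of the second sequence at junction position 16, the first capital below.
IGKV3-5 with IGKJ5: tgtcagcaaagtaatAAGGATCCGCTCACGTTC
For IGKV3-7, IGKJ5 was in 0 of 17 cells with the second sequence and 45 of 219 with the first. For IGKV3-10 it was in 0 of 21 and 20 of 183, and IGKJ2 was in 17 of those 21.

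**Figure D4:**
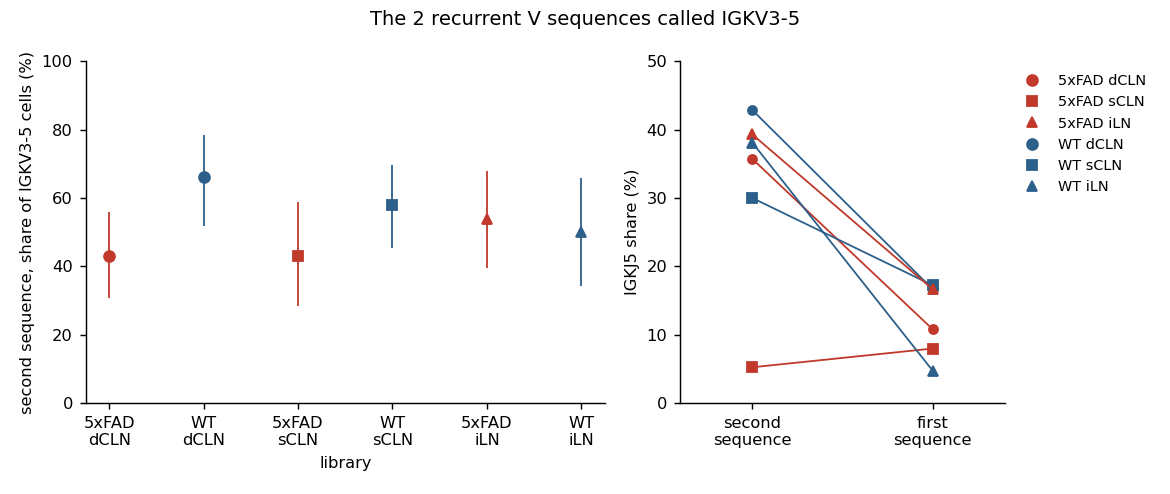
Left, share of IGKV3-5 cells with the second V sequence (y axis, %) in each library with exact 95% intervals, between 43.1% and 66.0%. Right, IGKJ5 share (y axis, %) among cells with the second and the first sequence, 1 line per library, higher with the second in 5 of 6.

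Read against the deposited germline, 182 of 1241 unswitched member cells (IgM or IgD) had a V mismatch (14.7%), and against the nearest recurrent sequence of the gene 11 did (0.886%). The recurrent sequences end at the conserved cysteine, and up to that point the count against the deposited germline was also 182. IGKV3-1 (43 cells) and IGKV3-2 (182 cells) had 0 unswitched cells with a mismatch, while 140 of 271 IGKV3-5 cells had at least 1. By library the light V mutation of unswitched cells was 0.477 ± 0.127% in member cells and 0.137 ± 0.0267% in other kappa cells, higher in 6 of 6 libraries. With the recurrent sequences as germline, for all kappa genes, the difference was -0.0047 points (exact sign-flip p = 0.438).

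Switched cells (IgG or IgA) were mutated under either reading. A mismatch was in 36 of 40 (90%) against the deposited germline and in 34 of 40 (85%) against the nearest recurrent sequence, with a median of 4 mismatches against the germline. Against the deposited germline, their light V mutation averaged 1.59 ± 0.682% in member cells and 2.02 ± 0.195% in other kappa cells. It was lower in 5 of 6 libraries (exact sign-flip p = 0.0938), of which WT dCLN had 3 switched member cells and each iLN library 2. Across all alternatives other than leaving out a library, the difference ran from -1.04 to 0.846 points. Heavy V mutation of unswitched cells was 0.0187 ± 0.0145% and 0.0230 ± 0.0035%.

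Most member cells were unswitched. Of 1281 with a constant region call, 40 were switched, 15 of them IgG2b, 9 IgG2c, 8 IgG1, 5 IgA and 3 IgG3. The switched share by library averaged 2.75 ± 1.89% in member cells and 2.96 ± 1.35% in other kappa cells and was lower in 4 of 6. IGKV3-2 had 10 switched of 192 cells (5.21%, exact 95% interval 2.53 to 9.37%), 4 of them IgA. These IgA cells include the WT dCLN and WT sCLN cells that share a receptor (below), and whether those are separate cells was not tested. IGKV3-1 had 0 of 43, which allows a share of up to 6.98%. Of 7 switched IGKV3-5 cells, 6 were in the 5xFAD dCLN library and 5 carried the second sequence.

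Member cells were paired with heavy chains of most families. A heavy chain was the only one in 1301 cells. IGHV1, the largest family, was the partner in 61.4 ± 4.23% of member cells and 58.7 ± 1.11% of other kappa cells, higher in 4 of 6 libraries. IGHV3 took 6.96 ± 1.67% in member cells and 4.19 ± 0.510% in other kappa cells, higher in 6 of 6. IGHV5 took 6.51 ± 1.67% and 8.74 ± 0.620%, lower in 6 of 6. IGHV11 and IGHV12, heavy V families known from B-1 cells, were in 0 of the 1301 member cells and in 9 and 7 other kappa cells. In other kappa cells with a heavy chain they averaged 0.0667% and 0.0523%, too rare for 0 member cells to show a lack. These family counts were given no p.

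The 5 commonest partners of member cells were IGHV1-26 (7.66 ± 1.80%, against 6.20 ± 0.499% in other kappa cells), IGHV3-6 (5.33 ± 1.69%, against 3.34 ± 0.373%), IGHV9-3 (4.43 ± 2.00%, against 3.87 ± 0.465%), IGHV1-82 (4.39 ± 1.86%, against 2.29 ± 0.352%) and IGHV1-72 (4.32 ± 1.46%, against 2.58 ± 0.218%). IGHV9-3 was higher in member cells in 4 of 6 libraries and each of the others in 5 of 6. All 5 were picked by their share in member cells, which favours a higher value there. Partners lower than in other kappa cells in 6 of 6 libraries, those with the largest differences, were IGHV1-81 (1.76 ± 1.01%, against 3.19 ± 0.286%), IGHV14-4 (0.184 ± 0.204%, against 1.44 ± 0.308%) and IGHV8-12 (0.884 ± 0.450%, against 1.90 ± 0.274%). IGHV14-4 rests on 3 member cells, against 197 other kappa cells. Of 58 IGHV genes, 10.3% were lower in 6 of 6 libraries and 0% were higher in 6 of 6, from which nothing is read: a gene entered at 0.5% in either set of cells, which IGHV14-4 reached through other kappa cells alone.

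**Figure D5:**
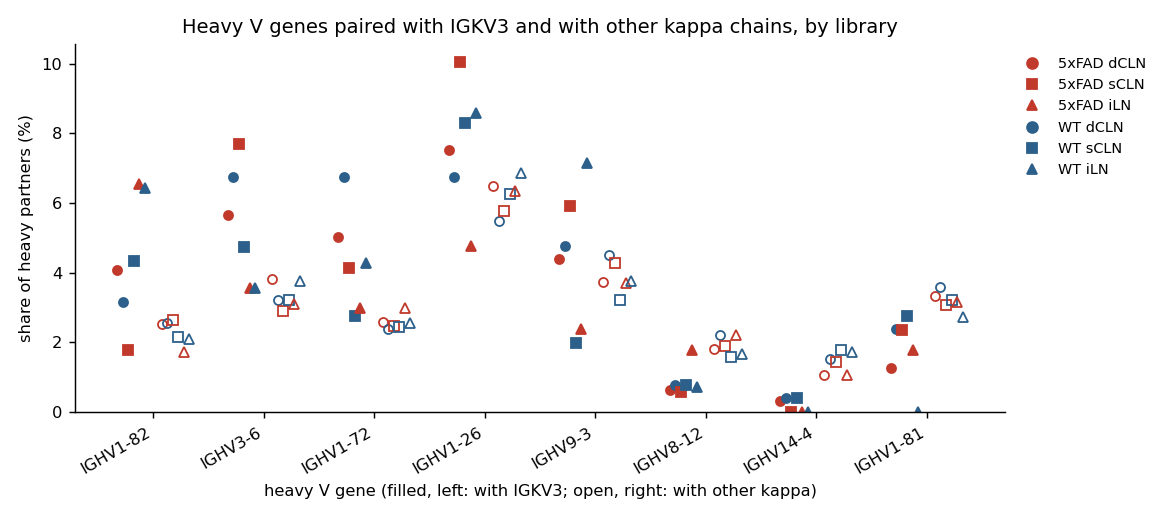
Share of heavy chain partners (y axis, %) that use each named heavy V gene, for member cells (filled symbols, left) and other kappa cells (open symbols, right) in 6 libraries. Genes run from the largest positive to the largest negative difference; filled symbols of IGHV14-4 lie at or near 0.

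Heavy junctions were longer in member cells in 6 of 6 libraries, at 43.1 ± 0.447 bases, against 42.3 ± 0.218 bases in other kappa cells (exact sign-flip p = 0.03125, adjusted 0.0586). The size depended on the cells compared. Against other + strand cells it was 1.46 bases and higher in 6 of 6 libraries, and against opposite-strand cells 0.475 ± 0.570 bases and higher in 4 of 6 (exact sign-flip p = 0.156). Identical receptors were small: 59 receptors were in 2 cells, none in more, and together they held 118 of the 1301 cells with a heavy chain (9.07%). Cells that shared a receptor within a library were 16 of 319 in 5xFAD dCLN and 44 of 252 in WT dCLN, 10 of 169 in 5xFAD sCLN and 30 of 253 in WT sCLN, and 10 of 168 in 5xFAD iLN and 6 of 140 in WT iLN. Whether the 2 barcodes of such a receptor are separate cells was not tested, so these counts are not read as expanded clones. No receptor was found in both genotypes. The one found in 2 libraries paired IGHV1-64 with IGKV3-2 and IGKJ2 in an IgA cell of WT dCLN with 15180 light UMIs and an IgA cell of WT sCLN with 28, each with 15 heavy V mismatches. Whether these are separate cells was not tested.

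The median light chain UMI count was higher in member cells in 6 of 6 libraries, with 34.7 ± 2.80 UMIs, against 26.8 ± 2.56 in other kappa cells. This held in 6 of 6 libraries among cells with IGKJ1, IGKJ2 or IGKJ5 and in 4 of 6 with IGKJ4. Median heavy UMIs were 9 to 12 in member cells and 9 to 13 in other kappa cells. IGKV3-4 had a median of 40 UMIs, rank 4 of 63 IGKV genes, and IGKV3-1, which had too few cells to be ranked, also had 40. Against other + strand cells, at 32.0 ± 3.22 UMIs, the members' median was 2.67 UMIs higher.

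Between genotypes, no measure of member cells passed a test, and with 3 nodes the smallest p is 0.25. The member share was higher in 5xFAD in all 3 nodes, by 0.431 points in dCLN, 0.192 in sCLN and 1.57 in iLN (mean 0.732 ± 0.739, exact sign-flip p = 0.25, adjusted 1 over 6 measures). Single genes passed a ratio of 1.5 between 5xFAD and WT in 0 of 6 members in dCLN, where 16.9% of all light V genes did. In sCLN 2 of 6 did, against 11.3% of genes: IGKV3-12 (1.67% in 5xFAD, 1.01% in WT) and IGKV3-10 (0.793% in 5xFAD, 1.47% in WT). In iLN 1 of 6 did, against 21.1%: IGKV3-2 (1.33% in 5xFAD, 0.800% in WT). Genes entered with at least 20 cells in both libraries of a node together, which IGKV3-1 did not reach. Exact intervals overlapped for all 6 members in every node, and were apart for 1.41% of genes in dCLN, 0% in sCLN and 3.51% in iLN.

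The J genes of member cells varied between genotypes without one direction for IGKJ1 and IGKJ5. The IGKJ1 share, 5xFAD minus WT, was -9.27 points in dCLN (interval -17.0 to -1.47), 0.833 points in sCLN and -9.55 points in iLN. IGKJ2 was higher in 5xFAD in each node, with 34.6% against 24.8% in WT dCLN (difference 9.75 points, interval 2.51 to 16.8), 34.98% against 28.9% in WT sCLN and 37.5% against 32.5% in WT iLN. In other kappa cells the IGKJ2 difference was -1.88, -1.12 and -0.107 points in dCLN, sCLN and iLN. The IGKJ2 comparison was picked after seeing the values and was given no p.

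Switched member cells were 17 of 316 (5.38%) in 5xFAD dCLN and 3 of 245 (1.22%) in WT dCLN. They were 4 of 168 (2.38%) in 5xFAD sCLN and 12 of 248 (4.84%) in WT sCLN, and 2 of 164 and 2 of 140 in 5xFAD and WT iLN. The 17 cells of 5xFAD dCLN fell into 15 sets of the same heavy and light V gene, J gene and junction lengths, so they were not 1 clone. In other kappa cells the switched share was 3.84% in 5xFAD dCLN and 4.17% in WT dCLN, 2.55% in 5xFAD sCLN and 4.36% in WT sCLN, and 1.27% in 5xFAD iLN and 1.57% in WT iLN. IgD was 18.7% of unswitched member cells in 5xFAD dCLN and 33.5% in WT dCLN, 18.9% and 28.4% in 5xFAD and WT sCLN, and 22.2% and 21.0% in 5xFAD and WT iLN. In other kappa cells IgD was 16.2% in 5xFAD dCLN and 27.2% in WT dCLN, 19.1% in 5xFAD sCLN and 23.7% in WT sCLN, and 20.3% in 5xFAD iLN and 21.2% in WT iLN.

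Between nodes, member cells averaged 8.57% in the 4 cervical libraries and 8.03% in the 2 inguinal libraries (exact two-sided permutation p = 0.533, smallest possible 0.133). Without the WT iLN library the difference was -0.246 points. Over the 6 libraries, the light V gene whose share varied most like that of the members was IGKV6-25 (Pearson r = 0.848), followed by IGKV12-44 (0.669) and IGKV6-23 (0.603), of 36 genes at 1% or more. Shares of 1 library sum to a whole, and 6 points of this kind describe these libraries only.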

How the data were processed

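B cell receptor libraries were made from lymph node cells with a 10x Chromium 5' kit, with viability above 87%, per the labels' protocols. The submitters' processing notes list mm10, Seurat 4.1.0 and Cell Ranger 6.0.1 and give none of them a role. Per the file headers, the authors deposited 1 contig per line with V and J calls, the germline alignment and a count of UMIs. Per the file headers, the authors also deposited V identity as a fraction, which no result uses. The germline set is not given in the sources used here.

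The 6 libraries held 20052 barcodes and between 99906 and 312484 immunoglobulin UMIs each. Barcodes with several light chains, which can be doublets, were set aside; without gene expression data here, no caller of doublets was used. Library pairs shared 4 to 35 barcodes (0.167% to 0.852% of the smaller library), none with the same receptor. All 1505 member calls named 1 gene and equalled the second V call that the files carry.

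Junction lengths are in bases. V mutation is the percent of V bases that differ between deposited sequence and germline alignment over all aligned V bases, with gaps left out, while recurrent sequences were read up to position 312. Shares have exact Clopper-Pearson 95% intervals, differences intervals by square-and-add, and a 0 count the limit of 3 counts; these cover counting error only, since cells of 1 clone are not independent. Cells were never used as replicates. Measures against other kappa cells used exact two-sided sign-flip tests over 6 libraries (15 measures), those between genotypes over 3 nodes (6 measures), each with Benjamini-Hochberg adjustment, in Python 3.11.15 with numpy 2.4.6, pandas 2.3.3 and scipy 1.17.1. Functions were tested on simulated data. Named partners were the 5 commonest heavy V genes and up to 3 per direction with one sign in all libraries, among genes at 0.5% or more in either set of cells. Names of single junctions, substitutions and receptors were those with the most cells. Members, lists and measures were chosen with earlier results of these data known. Alternatives were a single heavy chain, at least 3 light UMIs, repeated receptors counted once, joint V calls left out, cells with 2 light chains added, neighbouring genes as comparison, an average over member genes, kappa cells alone and leaving out each library or node.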

Additional observations from a re-analysis of the deposited data

Results flagged for a closer look

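Differences of opposite sign between nodes, beyond their combined intervals, were seen for 4 shares of IGKV3 cells, none tested because each node and genotype has 1 library. The 4 were picked from a wider scan of J, junction, isotype, mismatch and heavy chain shares over every pair of nodes. The switched share, 5xFAD minus WT, was 4.16 points in dCLN and -2.46 points in sCLN, and in other kappa cells -0.333 and -1.80 points. The IgD share of unswitched cells was -14.7 points in dCLN and 1.21 points in iLN, and in other kappa cells -11.0 and -0.921 points. The share with a light V mismatch to the deposited germline was -9.34 points in sCLN and 2.37 points in iLN, and in other kappa cells -1.87 and -0.207 points. The share with exactly 1 heavy chain was 9.58 points in dCLN and -2.80 points in sCLN, and in other kappa cells 7.99 and 1.48 points.

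No library stood apart from the others in 16 sets of 6 values. The mixed library, which no comparison used, held 16 cells with the second IGKV3-5 sequence and 30 with the first.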

How the results depend on the processing

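No analysis with replicate numbers as a block was possible, because each node and genotype has 1 library and groups share fewer than 2 replicate numbers. The sign-flip tests do pair 5xFAD with WT by node, or member with other kappa cells within a library. Of 326 values under alternatives, 314 kept direction and side of the threshold and 11 changed sign. No result had passed 0.05 to begin with. The 120 values with 1 library or node left out could not pass, nor could any between genotypes or nodes. For these, keeping the side of the threshold was fixed in advance and says nothing. With cells of 2 light chains added, 5xFAD minus WT was 0.247 points for IGKJ5 and 0.0364 bases for junction length. Changes of sign also came with settings chosen after seeing the data: -0.0047 points for unswitched light V mutation with recurrent V sequences as germline, 0.846 points for switched light V mutation with IGKV3-3 and IGKV3-9 as members, and 0.450 points for N bases against + strand genes. At a ratio of 2, 0 of 18 member comparisons between genotypes were called, against 3 of 18 at 1.5, where 2.11% and 16.3% of all 190 were called. Leaving out 1 library gave -0.565 to 0.332 points for the switched share against other kappa cells (positive without WT dCLN) and -0.246 to 1.33 for cervical minus inguinal. Leaving out 1 node gave -0.0266 to 0.0211 bases for junction length between genotypes, -1.33 to 1.97 points for the switched share, -2.26 to 2.07 for IGKJ5 and -4.93 to 0.921 for light V mismatches. The causes were not tested. Depth limits the 5xFAD against WT values: 163 to 347 member cells per library.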

Other observations

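The 2 IGKV3-5 sequences had similar heavy junctions, with means of 42.7 bases for the second and 43.0 for the first, and IGHV1 partners in 70.7% of 147 and 54.7% of 139 cells. These values are over cells of 6 libraries and were not tested. The median light UMI count was 37 for the second and 32 for the first.

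IGKV3-3 and IGKV3-9, the family genes outside the list, also carried recurrent V sequences that differ from the deposited germline. IGKV3-3 had a single recurrent sequence, with 24 substitutions, so all 87 cells were assigned to it. Its nearest annotated transcript was that of IGKV3-9, with 22 mismatches. IGKV3-9 had 45 cells nearest a sequence with 22 and 18 cells nearest one with 8. Their IGKJ1 shares were 48.3% and 42.9%, within the range of the members.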
